A study of Mus musculus with 34 samples.

Results

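The mitochondrial genome encodes 2 ribosomal RNAs (rRNAs), mt-Rnr1 of the small subunit and mt-Rnr2 of the large subunit of the mitochondrial ribosome. These 2 genes were taken by name from the 51368 genes of the count table and followed across all 34 libraries of the series, together with the ratio of the 2. They were picked because their levels differed between library preparations, so levels and ratios by preparation, and the heart library, are described here without a test. Tests are given for fragment length, ramp rate and batch.

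The mitochondrial ribosome translates the mRNAs of the mitochondrial genome, and its rRNAs form the decoding site and the peptidyl transferase centre. Both rRNAs are cut out of long transcripts of the heavy strand, in which tRNAs stand between the other genes, and both are known to end in short A tails, whereas most mitochondrial mRNAs carry longer ones. Liver and heart hold many mitochondria, and mitochondrial rRNA is abundant in both.

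The labels of liver and of heart libraries both describe 1 wild-type C57BL/6J mouse aged 12 weeks, given as male in one label and female in another, and do not say whether both tissues came from the same animal. The liver libraries are separate preparations from 1 mouse, as labelled, and p-values measure the spread between preparations only. PolyA selection (9 libraries, TruSeq Stranded mRNA kit) captures RNA by stretches of A. The rRNA pull-down (9 libraries, TruSeq Stranded Total RNA kit) removes rRNA on hybridised probes, and rRNA digestion (9 libraries, Illumina Stranded Total RNA kit with Ribo-Zero Plus, adapters exchanged) degrades rRNA paired with DNA probes. The rRNA sequences covered by the probes were not given in the sources used here. Each method had 1 library at every combination of slow, medium and fast ramp rate (how quickly the PCR cycler changes temperature) with short, medium and long fragments. Unselected libraries, with no removal step, numbered 3 in batch 1 and 3 in batch 2 for liver and 1 in batch 1 for heart, all with slow ramp and medium fragments. Selected libraries started from 200 ng of RNA and unselected ones from 20 ng, and every library was amplified for 13 cycles. Batch 1 held every polyA library and batch 2 every library of the 2 rRNA methods, so method, kit and batch cannot be told apart between polyA selection and the rRNA methods.

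Totals of estimated counts (M, 1e+06 counts) ran from 19.9 to 30.2 M in the unselected liver, heart and digestion libraries, from 23.5 to 41.4 M in the polyA libraries and from 23.4 to 39.2 M in 8 pull-down libraries. The pull-down library with slow ramp and long fragments reached 1.13 M, and nuclear rRNA genes held 12.7% of them against 0.0087% to 0.0216% in the other 8. It is called the low-total library here, and for the results most affected values with and without it are set side by side. Nuclear rRNA genes held 70.0% to 73.5% of the counts of unselected liver, and Lars2 held a further 7.79% to 8.78% there. In the heart library the 5 cardiomyocyte markers held 2.38% of the counts outside nuclear rRNA genes and Lars2, against at most 9.7e-05% in any liver library. The 5 hepatocyte markers held 0.0157% in heart and at least 5.44% in liver.

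mt-Rnr1 (ENSMUSG00000064337) lies on the plus strand of mitochondrial chromosome M at bases 70 to 1024 of GRCm38 and is 955 bases long. mt-Rnr2 (ENSMUSG00000064339) lies on the same strand at bases 1094 to 2675 and is 1582 bases long. Both are single-exon genes that are not translated, with the tRNA genes mt-Tf before mt-Rnr1, mt-Tv between the 2 and mt-Tl1 after mt-Rnr2, and with mt-Nd1, a subunit of respiratory complex I, next. All 22 mitochondrial tRNA genes, of 59 to 75 bases, were listed at 0 in all 34 libraries. The ends of both rRNAs mark where these neighbours are cut away, and the second window of each holds its longest run of A (for mt-Rnr1, one of 2 runs of the same length), shown because polyA selection captures stretches of A. Sequences are from the GENCODE M21 transcripts (GRCm38), 5′ to 3′ on the plus strand, with runs of at least 5 A in capitals.
mt-Rnr1 first bases, chrM:70-129: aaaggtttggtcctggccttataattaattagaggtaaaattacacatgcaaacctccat
mt-Rnr1 longest run of A, chrM:677-736: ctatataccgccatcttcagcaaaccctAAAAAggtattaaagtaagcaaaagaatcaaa
mt-Rnr1 last bases, chrM:965-1024: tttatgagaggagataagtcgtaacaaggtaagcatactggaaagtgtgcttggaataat
mt-Rnr2 first bases, chrM:1094-1153: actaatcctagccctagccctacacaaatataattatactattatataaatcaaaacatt
mt-Rnr2 longest run of A, chrM:1461-1520: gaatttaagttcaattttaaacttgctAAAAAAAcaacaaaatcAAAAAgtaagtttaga
mt-Rnr2 last bases, chrM:2616-2675: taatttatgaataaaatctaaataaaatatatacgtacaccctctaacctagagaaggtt

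Both genes were rich in A, with 37.8% A in mt-Rnr1 and 38.2% in mt-Rnr2, against a median of 25.6% over 58784 protein-coding transcripts of nuclear genes. GC content was 35.8% in mt-Rnr1 and 35.4% in mt-Rnr2, where the median of those transcripts was 50.4%. The 2 rRNAs differed in their runs of at least 5 A: mt-Rnr1 held 2, the longest of 5 bases, and mt-Rnr2 held 9, the longest of 7. A run of 7 A was present in 27.7% of the nuclear protein-coding transcripts. Whether these runs were captured by polyA selection was not tested. No other annotated transcript matched either rRNA over at least 100 bases at 90% identity or more. The nearest was Gm20594, with 88.5% identity over 435 bases of mt-Rnr2 and a longest identical run of 65 bases, and it had 0 to 6 counts per library.

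As a share of all counts, both rRNAs were high in unselected and pull-down libraries and low after polyA selection and digestion. The share of mt-Rnr1 was 2.14%, 2.25% and 2.33% in the liver libraries of batch 1 without selection and 2.41%, 2.87% and 2.57% in those of batch 2. Its share after pull-down ran from 1.93% through a median of 2.33% to 3.35%, which overlaps the unselected values. After digestion it ran from 0.0992% through 0.153% to 0.165%, and after polyA selection from 0.0225% through 0.0287% to 0.0518%, with no overlap between these 2 methods or with the others. mt-Rnr2 held 2.34%, 2.47% and 2.57% in unselected batch 1 and 2.76%, 3.29% and 3.02% in unselected batch 2. After pull-down it ran from 7.43% (the low-total library) through 15.6% to 20.2%, above every other liver library. After digestion it ran from 0.0307% through 0.0508% to 0.0722% and after polyA selection from 0.0262% through 0.0337% to 0.0634%, so that for mt-Rnr2 these 2 methods overlapped. Means ± SD were 2.48% ± 0.522 and 15.0% ± 3.94 for mt-Rnr1 and mt-Rnr2 after pull-down, 0.137% ± 0.0291 and 0.0479% ± 0.0130 after digestion, and 0.0343% ± 0.0111 and 0.0413% ± 0.0151 after polyA selection (n = 9 each). In 8 pull-down libraries, without the low-total one, they were 2.49% ± 0.555 and 15.9% ± 2.93.

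Shares of all counts depend on how much nuclear rRNA was left, so the shares were also taken over the counts outside nuclear rRNA genes and Lars2. On that scale mt-Rnr1 held 12.6% ± 0.778 in unselected batch 2 (n = 3) and 2.52% ± 0.525 after pull-down (n = 9), a 5.01-fold lower mean, with no overlap. mt-Rnr2 held 14.6% ± 0.851 and 15.1% ± 3.64 in the same groups, a ratio of the means of 1.03, with overlapping libraries. That pull-down mean pools all fragment lengths and the low-total library, while the unselected libraries had medium fragments only. Pull-down libraries with medium fragments held 16.4%, 17.2% and 15.6% mt-Rnr2 (slow, medium and fast ramp). Each lay above the unselected batch 2 libraries, at 13.8%, 15.5% and 14.5%. Digestion left mt-Rnr1 92.1-fold and mt-Rnr2 303-fold below unselected batch 2, and polyA selection left them 340-fold and 310-fold below unselected batch 1. Together the 2 genes held 24.6% and 27.2% of these counts in unselected batches 1 and 2, 17.6% after pull-down, 0.185% after digestion and 0.0759% after polyA selection. By CPM (counts per M) on TMM-scaled totals, called normalised CPM, the pull-down means were 4.96-fold lower for mt-Rnr1 and 1.05-fold higher for mt-Rnr2 than in unselected batch 2. Digestion means were 133-fold and 438-fold lower than in that batch, and polyA means 402-fold and 366-fold lower than in unselected batch 1. The comparisons with unselected libraries include the difference in RNA input.

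**Figure D1:**
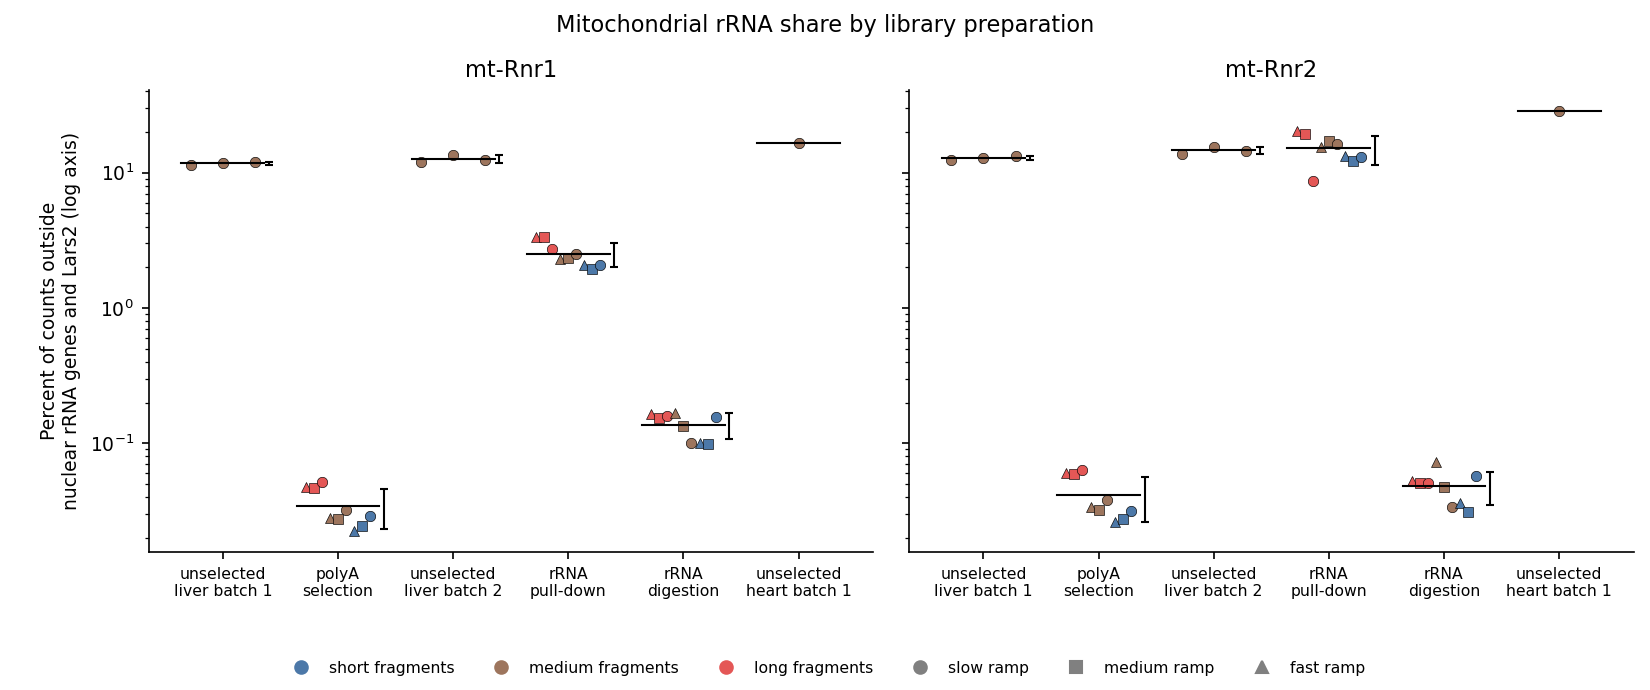
Share of mt-Rnr1 (left) and mt-Rnr2 (right) among counts outside nuclear rRNA genes and Lars2, in percent on a log axis, with 1 point per library (colour: fragment length; shape: ramp rate). Horizontal lines are group means and bars at their right are ± 1 SD. Over all fragment lengths, the pull-down mean of mt-Rnr2 (15.1%) lies near that of unselected batch 2 (14.6%). With medium fragments, as in the unselected libraries, every pull-down library lies above unselected batch 2 for mt-Rnr2. The pull-down mean of mt-Rnr1 (2.52%) lies below that of unselected batch 2 (12.6%).

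The ratio of the 2 rRNAs stood in opposite directions after the 2 rRNA-removal methods. Counts of mt-Rnr2 per kilobase were divided by those of mt-Rnr1 per kilobase in the same library, which removes the library total and the gene lengths. This ratio was 0.661, 0.662 and 0.667 in unselected batch 1 and 0.693, 0.692 and 0.708 in unselected batch 2. PolyA libraries ran from 0.665 through 0.725 to 0.766, overlapping both unselected batches. Pull-down libraries ran from 1.93 (the low-total library) through 3.83 to 4.43, and the other 8 lay at 3.47 or above. Digestion libraries ran from 0.187 through 0.202 to 0.264. Neither rRNA method overlapped any other liver group. The mean ratio was 5.25-fold higher after pull-down and 3.31-fold lower after digestion than in unselected batch 2, and 17.4-fold higher after pull-down than after digestion.

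**Figure D2:**
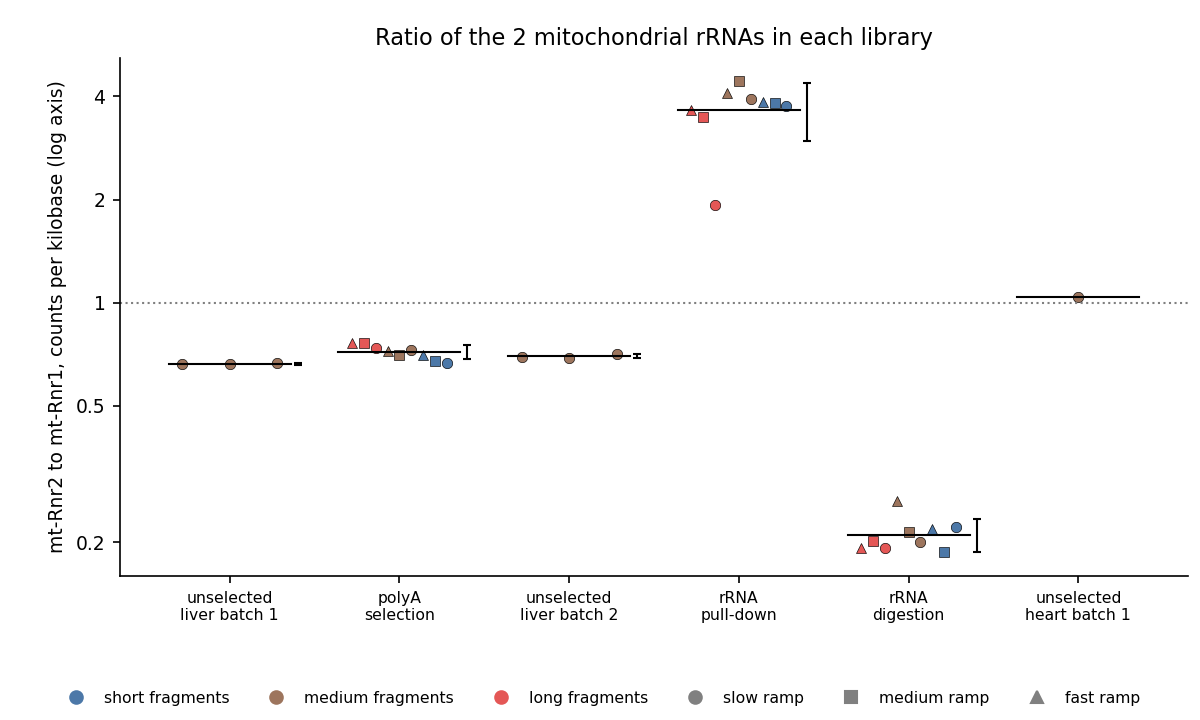
Ratio of mt-Rnr2 to mt-Rnr1 in counts per kilobase, on a log axis, with 1 point per library (colour: fragment length; shape: ramp rate), group means as lines and ± 1 SD as bars; the dotted line marks equal levels. Pull-down libraries lie at 1.93 to 4.43, digestion libraries at 0.187 to 0.264, and unselected and polyA liver libraries at 0.661 to 0.766.

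Set beside the next gene downstream, the rRNAs changed place with preparation. For each group, the mean count per kilobase was divided by the mean library total in M, so the low-total library weighs little. Unselected batch 2 had values of 27363 for mt-Rnr1, 19085 for mt-Rnr2 and 598 for mt-Nd1. After pull-down the values were 26344, 101614 and 1485. After digestion they were 1444, 305 and 1896, and after polyA selection 347, 252 and 2868, so mt-Nd1 was the highest of the 3 after both. Per kilobase, the ratio of mt-Rnr1 to the summed 13 mitochondrial mRNAs was 39.9 ± 0.788 in unselected batch 2 (n = 3), 14.6 ± 1.72 after pull-down, 0.442 ± 0.0853 after digestion and 0.110 ± 0.00876 after polyA selection (n = 9 each). For mt-Rnr2 it was 27.8 ± 0.285, 52.3 ± 7.08, 0.0936 ± 0.0245 and 0.0795 ± 0.00923. Of the 13 mRNAs, 11 share sequence with annotated pseudogene transcripts, among which counts could be divided, while mt-Nd1 and mt-Atp8 do not.

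In rank by count, mt-Rnr2 was the third and mt-Rnr1 the fourth gene in every unselected liver library. After pull-down mt-Rnr2 ranked 1 to 3 and mt-Rnr1 ranked 4 to 5. After digestion mt-Rnr1 ranked 68 to 118 and mt-Rnr2 ranked 147 to 419, with mt-Rnr1 the higher of the pair. After polyA selection mt-Rnr2 ranked 191 to 494 and mt-Rnr1 ranked 235 to 590.

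The single unselected heart library had more of both rRNAs than unselected liver of the same batch, and relatively more mt-Rnr2. mt-Rnr1 held 5.91% of its counts (95% Wilson interval 5.90% to 5.92%) and mt-Rnr2 held 10.2% (10.18% to 10.21%). These intervals cover counting error only. Outside nuclear rRNA genes and Lars2 the shares were 16.6% and 28.7%, against means of 11.7% and 12.9% in liver batch 1, and 45.3% for both together. The ratio per kilobase was 1.04, above the 3 liver libraries of batch 1 at 0.661 to 0.667. By normalised CPM, scaled over all 34 libraries, heart had 157226 against a liver batch 1 mean of 96200 for mt-Rnr1. For mt-Rnr2 heart had 271329 against 105707. Folds were taken after TMM scaling over the heart and liver batch 1 libraries alone, which made them larger. On that scaling heart was 1.84-fold above liver batch 1 for mt-Rnr1 and 2.88-fold for mt-Rnr2. Of 12828 genes compared, 26.4% were at least 2-fold higher in heart, and 1 of the 2 rRNAs passed that fold. The 13 mitochondrial mRNAs were 2.99-fold (mt-Nd2) to 22.5-fold (mt-Co2) higher, so each exceeded both rRNAs in its fold. The rRNA to mRNA ratio per kilobase was accordingly lower in heart, at 17.4 for mt-Rnr1 and 18.1 for mt-Rnr2, than in liver batch 1, at 40.1 ± 0.460 and 26.6 ± 0.421 (SD, n = 3). The fold of mt-Nd2 lay close to that of mt-Rnr2, and the highest fold below mt-Co2 was 5.90 (mt-Nd3). The liver level behind the mt-Co2 fold varied widely, at 105 ± 48.8 (SD, n = 3). mt-Co2 also shares sequence with Gm13341 and Gm28661. In bulk tissue, a different number of cells of a type and a different amount of RNA per cell cannot be told apart. There is no replicate of heart, and no test was made.

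**Figure D3:**
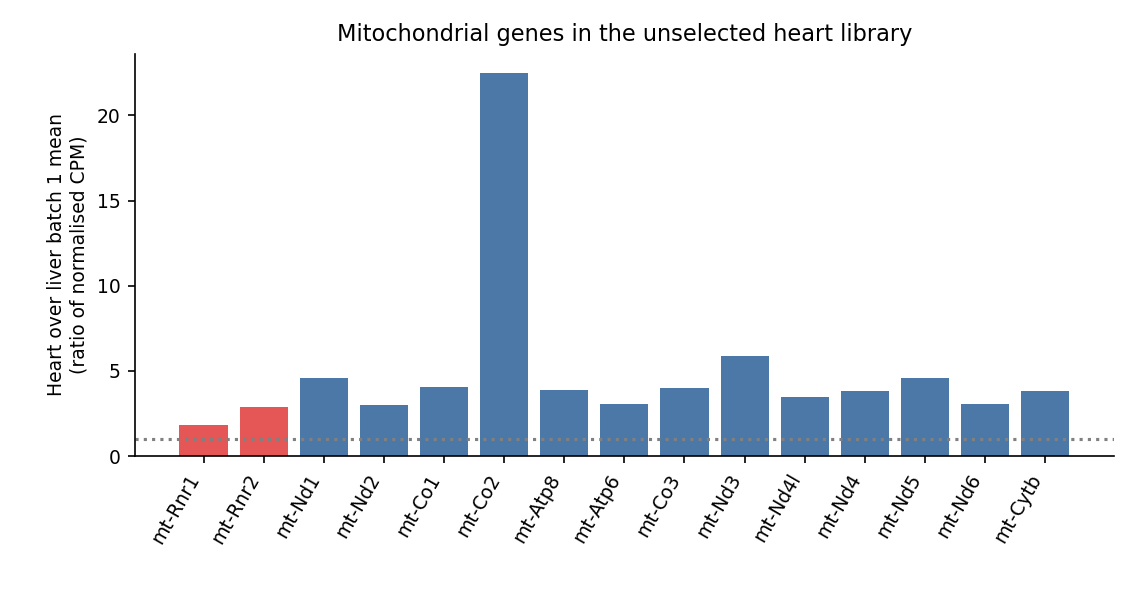
Heart over liver for the 2 mitochondrial rRNAs (red) and 13 mitochondrial mRNAs (blue). Values are the CPM of the 1 unselected heart library divided by the mean of the 3 unselected liver libraries of batch 1. Totals were TMM-scaled over these libraries alone, unlike the normalised CPM of the other figures. The dotted line marks no difference. The rRNAs stand at 1.84 and 2.88 and the mRNAs at 2.99 to 22.5. The top value is mt-Co2, whose liver libraries varied widely, and the next is mt-Nd3 at 5.90.

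Fragment length was the factor with which both rRNAs moved. Over the 27 selected libraries, with method and ramp rate in the fit, mt-Rnr1 rose by a log2 fold change of 0.74 (SE 0.11, adjusted p = 1.06e-05) and mt-Rnr2 by 0.67 (SE 0.17, adjusted p = 0.00329) from short to long fragments (edgeR quasi-likelihood test, Benjamini-Hochberg over 15230 genes). Both members passed, where 44.7% of all genes tested did. With DESeq2 the change of mt-Rnr2 was 0.67 with an adjusted p of 0.631, so its call rests on the tool.

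The length effect was clearest after polyA selection. mt-Rnr1 held 0.0287%, 0.0246% and 0.0225% of counts with short fragments (slow, medium and fast ramp) and 0.0518%, 0.0470% and 0.0471% with long ones. mt-Rnr2 held 0.0316%, 0.0276% and 0.0262% with short fragments and 0.0634%, 0.0596% and 0.0597% with long ones. Every long-fragment library exceeded every short-fragment library for both genes. The log2 fold changes were 1.01 (SE 0.04, adjusted p = 3.20e-08) for mt-Rnr1 and 1.16 (SE 0.04, adjusted p = 1.12e-08) for mt-Rnr2, by edgeR, in a comparison where 55.2% of genes passed.

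After pull-down, mt-Rnr1 held 2.08%, 1.93% and 2.09% with short fragments and 2.33%, 3.35% and 3.33% with long ones, in the same order of ramp rates. mt-Rnr2 held 13.0%, 12.2% and 13.4% with short fragments and 7.43%, 19.3% and 20.2% with long ones. The long-fragment values lay above the short-fragment ones except for mt-Rnr2 in the low-total library, which lay below them. mt-Rnr1 rose by 0.72 (SE 0.14, adjusted p = 0.0278) and mt-Rnr2 gave 0.37 (SE 0.28, adjusted p = 0.439), by edgeR, where 6.08% of genes passed. Without the low-total library mt-Rnr1 rose by 0.92 (adjusted p = 5.88e-07) and mt-Rnr2 by 0.80 (adjusted p = 1.41e-05), in a fit where 5398 of 14432 genes passed. The call for mt-Rnr1 was lost when any other of the 6 libraries with long or short fragments was left out, with log2 values of 0.61 to 0.80 and adjusted p up to 0.249.

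After digestion, mt-Rnr1 held 0.155%, 0.0992% and 0.100% with short fragments and 0.160%, 0.153% and 0.165% with long ones. mt-Rnr2 held 0.0569%, 0.0307% and 0.0364% with short fragments and 0.0508%, 0.0511% and 0.0526% with long ones. The short-fragment library with slow ramp stood among the long-fragment libraries for mt-Rnr1 and above them for mt-Rnr2. The log2 values were 0.43 (SE 0.15, adjusted p = 0.0627) and 0.33 (SE 0.20, adjusted p = 0.325), by edgeR, so neither passed where 17.9% of genes did. Without that short-fragment, slow-ramp library both passed, at 0.77 for each gene (adjusted p = 2.71e-04 and 0.00400), where 1947 of 15117 genes did.

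**Figure D4:**
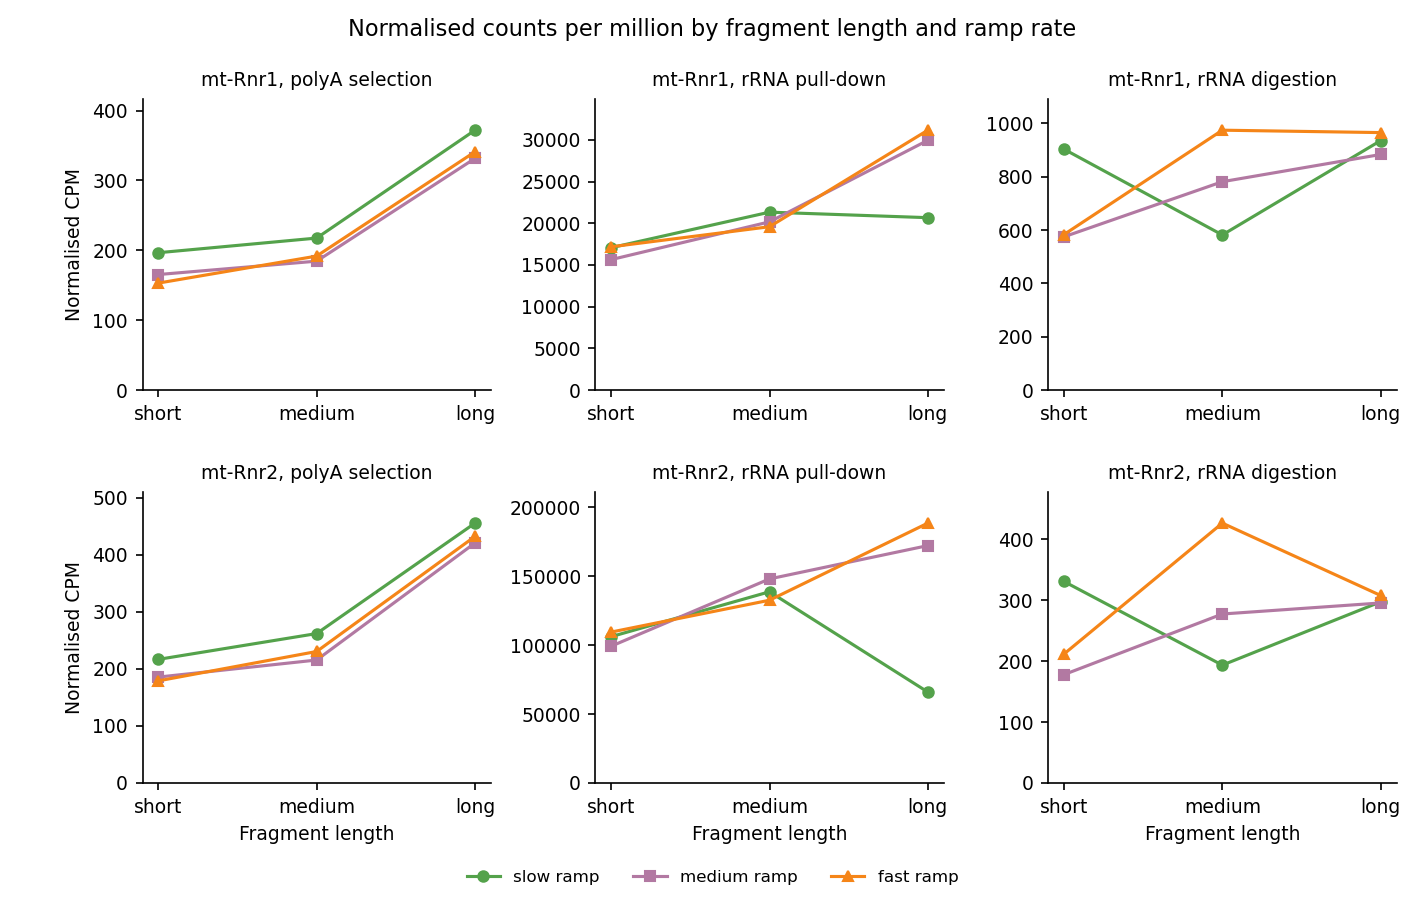
Normalised CPM (linear axes from 0, scaled to each panel) of mt-Rnr1 (top) and mt-Rnr2 (bottom) against fragment length in the 9 libraries of each method, with 1 line per ramp rate. Levels are highest with long fragments at every ramp rate after polyA selection. The slow ramp with long fragments after pull-down (the low-total library) and the fast ramp with medium fragments after digestion leave that order. The slow ramp with short fragments after digestion leaves it for mt-Rnr2 only.

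By edgeR, no difference in the length effect between methods passed for either gene. The log2 effect after polyA selection exceeded that after digestion by 0.54 (SE 0.24, adjusted p = 0.0861) for mt-Rnr1 and by 0.81 (SE 0.38, adjusted p = 0.112) for mt-Rnr2, in a test that 32.6% of genes passed (edgeR, 15442 genes). With DESeq2 the difference for mt-Rnr1 was 0.59 and passed, with an adjusted p of 0.0394. PolyA selection exceeded pull-down by 0.24 (SE 0.24) for mt-Rnr1 and 0.68 (SE 0.38) for mt-Rnr2, with edgeR adjusted p of 0.652 and 0.373, where 3% of genes passed. Without the low-total library these differences were 0.08 and 0.34 (SE 0.20 and 0.27, edgeR adjusted p = 0.888 and 0.534), where 1331 of 15743 genes passed. Pull-down exceeded digestion by 0.30 (SE 0.24) and 0.13 (SE 0.38), with adjusted p of 0.436 and 0.867, where 14.4% of genes passed. Without the low-total library both were 0.46 (SE 0.20 and 0.27, edgeR adjusted p = 0.0989 and 0.239), where 4081 of 15743 genes passed.

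Ramp rate gave no call for either rRNA in the edgeR fits with TMM scaling, the gene filter and every library, while some other settings gave calls after polyA selection and digestion. Fast against slow ramp over the 27 selected libraries gave a log2 value of -0.02 (SE 0.11) for mt-Rnr1 and 0.11 (SE 0.17) for mt-Rnr2, with unadjusted p of 0.856 and 0.520, in a comparison that 0.0328% of genes passed (edgeR). DESeq2 called neither. After polyA selection the values were -0.23 (SE 0.04, adjusted p = 0.0510) and -0.18 (SE 0.04, adjusted p = 0.0864), by edgeR, where 0.287% of genes passed. With DESeq2 both passed there, with adjusted p of 6.54e-06 and 2.27e-04, as did 223 of 14629 genes. Both also passed by edgeR without the polyA library of slow ramp and long fragments or without that of fast ramp and long fragments, at -0.26 each for mt-Rnr1 and at -0.23 and -0.21 for mt-Rnr2, where 168 of 14553 and 432 of 14564 genes passed. Without the gene filter both passed as well (adjusted p = 3.44e-06 and 1.20e-04), with 460 of 23601 genes. After pull-down the values were 0.15 (SE 0.14) and 0.44 (SE 0.29), and without the low-total library -0.06 and 0.01, where 0% of 14426 genes passed in the edgeR fit of all 9 libraries (324 had an unadjusted p under 0.05, and DESeq2 called 14). After digestion they were 0.03 (SE 0.15) and 0.16 (SE 0.20), where 0.388% of genes passed, and leaving out either medium-fragment library of slow or fast ramp turned both negative. Without the gene filter mt-Rnr2 had the same value of 0.16, but its SE was 0.0207 in place of 0.204, and it passed with 248 of 25055 genes (edgeR adjusted p = 1.31e-11). The cause of that fall in the SE was not tested, and the call rests on it.

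Of 5 measures per library, the 2 shares, the ratio and the ratio of each rRNA to the 13 mRNAs, none passed after adjustment over 15 tests. At the smallest p that 9 pairs allow, a measure that stood alone there could not pass this adjustment, and the batch tests of 3 against 3 libraries, whose smallest p is 0.1, could not pass at all. mt-Rnr1 had a larger share with long than with short fragments in 9 of 9 pairs matched for method and ramp, by 0.345 points on average (two-sided exact sign-flip test, p = 0.00391, which 9 pairs cannot go below, adjusted p = 0.0586). The 3 pull-down pairs carry that average, with a mean difference of 0.970 points against 0.0234 after polyA selection and 0.0409 after digestion. For mt-Rnr2 the share was larger in 7 of 9 pairs (mean difference 0.942 points, exact p = 0.258, adjusted p = 0.483). Without the pair of the low-total library that mean was 1.75 points (exact p = 0.0156, adjusted p = 0.117). The ratio of mt-Rnr2 to mt-Rnr1 was higher with fast than with slow ramp in 7 of 9 pairs, by 0.17 on the log2 scale (exact p = 0.0234, adjusted p = 0.156), and by 0.08 without the low-total library (exact p = 0.0469, adjusted p = 0.188). Its difference between long and short fragments was -0.11, with the exact test at p = 0.457 (adjusted p = 0.686) and 5 of 9 pairs lower, and -0.0065 without that library. The mt-Rnr1 to mRNA ratio was higher with long fragments in 7 of 9 pairs, by 0.20 (exact p = 0.0312, adjusted p = 0.156). With mt-Nd1 alone as the reference, chosen after seeing the data, that difference was 0.07 (exact p = 0.316, adjusted p = 0.593).

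The 2 batches of unselected liver gave close but not equal values. All 3 libraries of batch 2 exceeded all 3 of batch 1 in the share of mt-Rnr1 (mean difference 0.374 points), the share of mt-Rnr2 (0.560 points) and their ratio (0.07 on the log2 scale), each with an exact permutation p of 0.1, the smallest that 3 against 3 allow. In the edgeR fit over 33 liver libraries the log2 differences were 0.15 (SE 0.18, adjusted p = 0.968) for mt-Rnr1 and 0.22 (SE 0.28, adjusted p = 0.975) for mt-Rnr2. Their unadjusted p were 0.414 and 0.441, DESeq2 called neither, and 0% of the 15422 genes passed by edgeR (848 had an unadjusted p under 0.05, and DESeq2 called 18). Without the second library of batch 2 the difference of mt-Rnr1 was 0.08 on the log2 scale and 0.249 points of share. In a fit of the 6 unselected libraries alone both passed, at 0.16 (adjusted p = 0.0335) and 0.24 (adjusted p = 3.66e-04), as did 39 of 10642 genes.

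The 13 mitochondrial mRNAs, which code for subunits of the respiratory chain and of ATP synthase, moved with fragment length in the direction of the rRNAs. Over all selected libraries 12 of 13 rose with long fragments and none fell, where 24.8% of all genes rose and 19.9% fell, and the median log2 fold change was 0.68 against 0.02 over all genes. The smallest change was 0.38 in mt-Co1, of cytochrome oxidase, and the largest 1.82 in mt-Atp6, of ATP synthase. Without the low-total library all 13 rose, where 25.6% of all genes rose and 24.2% fell. After polyA selection 12 rose (median 0.80; 27.4% of all genes rose and 27.7% fell), and mt-Co3 had -0.22 (adjusted p = 0.0584, edgeR). After pull-down 7 rose and none fell (median 0.96), against 4.42% and 1.66% of all genes. Without the low-total library all 13 rose there (median 1.03), and the shares of all genes were 19.2% and 18.2%, so both counts depend on that library. After digestion 10 rose (median 0.25) and mt-Co2 fell by 0.08, where 8.8% of all genes rose and 9.15% fell. Without the digestion library of slow ramp and short fragments 7 rose and none fell (median 0.26), where 6.54% and 6.34% of all genes did, and mt-Co2 was at -0.06 (SE 0.03, adjusted p = 0.155), close to its value with every library. mt-Nd1, which shares no sequence with another transcript, changed by 0.93 after polyA selection, 0.65 after pull-down (adjusted p = 0.0611, and 0.87 with an adjusted p of 1.51e-05 without the low-total library) and 0.39 after digestion. For ramp rate no mitochondrial mRNA passed over all selected libraries (0.0328% of all genes, with or without the low-total library) or after pull-down (0% of all genes, and 0.118% without that library), and at these shares a count of 0 of 13 says nothing about the list. With fast ramp, mt-Nd6 (-0.52) and mt-Nd4l (-0.30) fell after polyA selection (edgeR adjusted p = 0.0234 each), where 0.287% of all genes passed. After digestion mt-Co2 rose (0.21, edgeR adjusted p = 2.67e-04), where 0.388% of all genes passed.

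**Figure D5:**
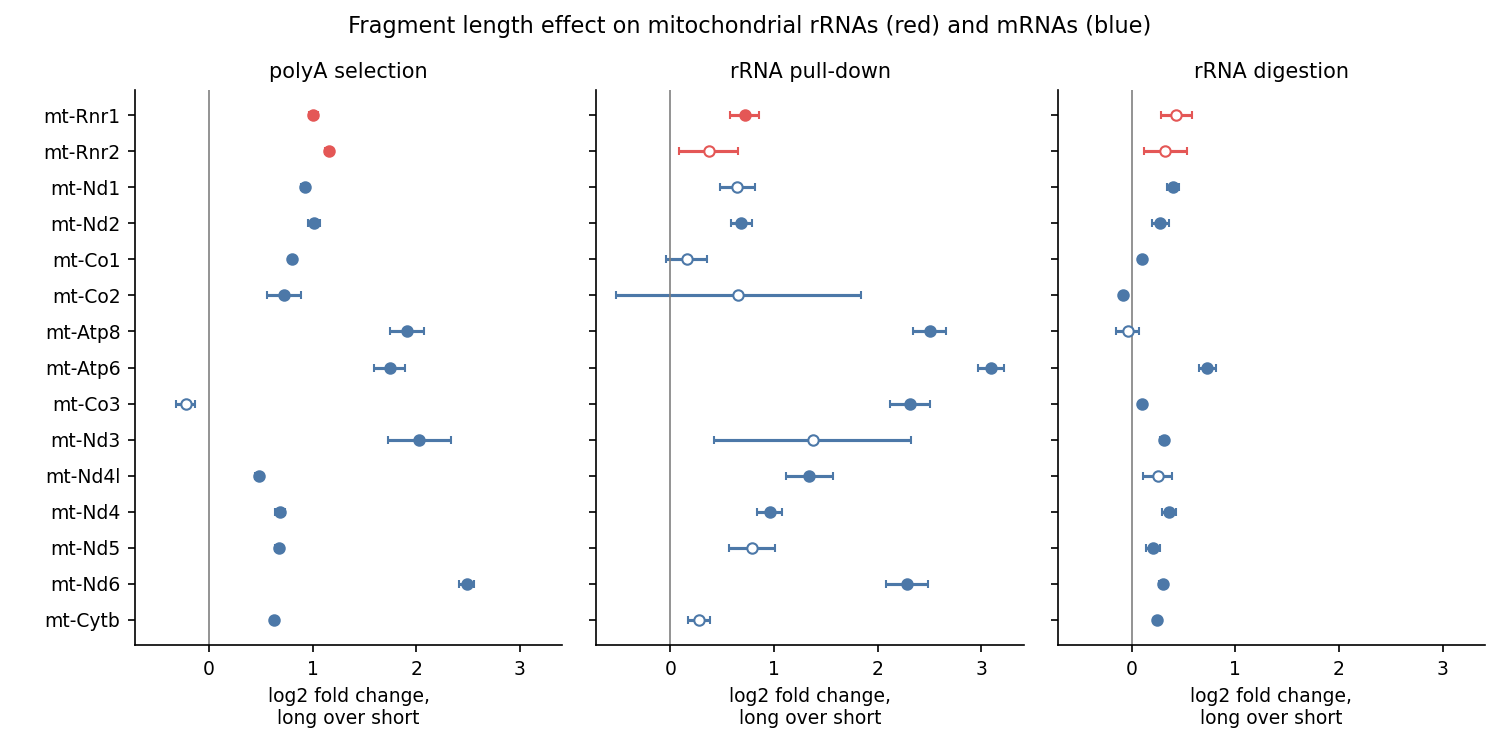
Log2 fold change of long over short fragments for the 2 mitochondrial rRNAs (red) and the 13 mitochondrial mRNAs (blue) within each method, with bars of ± 1 SE; filled points have an edgeR adjusted p under 0.05. After polyA selection the rRNAs stand at 1.01 and 1.16 with narrow bars, and after pull-down and digestion their bars are wider.

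With long fragments, more nuclear genes of the mitochondrial ribosome rose than fell after digestion. Both directions were seen after polyA selection, and the counts after pull-down lay near the shares of all genes. Of 82 mitochondrial ribosomal protein genes, 27 rose and 12 fell with long fragments over all selected libraries, against 24.8% and 19.9% of all genes, with a median log2 fold change of 0.04, from -0.29 in Mrps24 to 0.70 in Mrpl23. After polyA selection 22 rose and 31 fell (median -0.05), where 27.4% and 27.7% of all genes did. After pull-down 4 rose and 2 fell (median 0.01), where 4.42% and 1.66% of all genes did, and without the low-total library 13 rose and 12 fell (median -0.0054), where 19.2% and 18.2% did. After digestion 30 rose and 3 fell (median 0.12), where 8.8% and 9.15% did, and without its slow-ramp, short-fragment library 17 rose and 2 fell, where 6.54% and 6.34% did. A list of 32 factors covered mitochondrial transcription, rRNA modification, transcript processing, ribosome assembly, and RNA tails and decay. Of these, 11 rose and 6 fell over all selected libraries (median 0.02), in the same comparison with 24.8% and 19.9% of all genes. Without the low-total library 27 of the ribosomal protein genes rose and 17 fell, and 11 of the factors rose and 7 fell, where 25.6% and 24.2% of all genes did. With every library in the fit, the lowest factor was Polrmt, the mitochondrial RNA polymerase, at -0.41, and the highest Slirp, which with Lrpprc stabilises mitochondrial mRNAs, at 0.76. The 8 enzymes that modify the rRNAs had 1 that rose, Trmt61b, at 0.41, and the 5 transcription factors had 4 that rose and 1, Polrmt, that fell. With ramp rate no gene of either list passed over all selected libraries, where 0.0328% of all genes did, a share at which these counts say nothing about the lists. After polyA selection 1 of the 82 ribosomal protein genes fell, where 0.287% of all genes passed.

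The genes whose profile was most like that of the 2 rRNAs were found by Pearson r of log2 normalised CPM over the 33 liver libraries, among 15422 genes. For mt-Rnr1 they were Gm23442 (r = 0.969), Gm22154 (0.961), Gm15725 (0.959), mt-Rnr2 (0.953) and Mki67 (0.937). For mt-Rnr2 they were Gm15725 (0.982), Gm22154 (0.976), Gm23442 (0.954), mt-Rnr1 (0.953) and Pdia4 (0.921). Gm23442 and Gm22154 are annotated as small nucleolar RNAs and Gm15725 as a transcribed processed pseudogene. Their levels were low: Gm15725 had 8.55 normalised CPM in unselected batch 2, 5.53 after pull-down and 0 after polyA selection and digestion. Libraries of a method share their kit, so these r describe the method pattern and carry no p.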

How the data were processed

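The authors deposited estimated counts per gene (expected counts from Salmon), 1 column per library, for 51368 Ensembl genes. Per the submitters' processing notes, Salmon 1.9.0, UMI-tools 1.1.1, R 4.4.0 and GRCm38 were used. The transcript set, bias correction and removal of duplicates by molecular identifier were not given in the sources used here. Salmon divides reads among similar transcripts, so counts can move between near copies. Groups came from the labels. Identifiers were matched to GENCODE M21 (50896 of 51368), and the unmatched ones held at most 0.0452% of any library.

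Counts were rounded and tested over all genes with edgeR 4.0.16 (R 4.3.3): TMM, filterByExpr, quasi-likelihood test, Benjamini-Hochberg adjustment, threshold 0.05. Standard errors were the log2 fold change divided by the square root of F. DESeq2 1.42.0 was an alternative. The tests were tested on simulated data. Per-library measures used exact tests, adjusted together over 15. Wilson intervals cover counting error. Replicates differed beyond sampling noise (chi-square per degree of freedom 1.40 to 3.85) and were counted separately. Named genes were the 2 rRNAs, their neighbours, the 5 most similar genes by Pearson r (prior count 2), near copies, and the extremes of the lists. The genes and lists were chosen with earlier results of these data known.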

Additional observations from a re-analysis of the deposited data

Results flagged for a closer look

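The ratio of mt-Rnr2 to mt-Rnr1 and the other measures, 5 in all, were checked in each of the 3 methods for a library far from the rest. Chance trips about 1 in 20 such checks. The 15 checks are not independent, since the measures share the counts of the same libraries. After pull-down, the low-total library (slow ramp, long fragments) had the lowest ratio of mt-Rnr2 to mt-Rnr1 counts, at 3.19, where the other 8 had 5.75 to 7.34. The same library had the lowest ratio of mt-Rnr2 to the 13 mitochondrial mRNAs, at 4.83 in counts. Nuclear rRNA genes held 12.7% of its counts, and their part in these values was not tested. After digestion, the library of fast ramp and medium fragments had the highest ratio of mt-Rnr2 to mt-Rnr1 counts, at 0.438, where the group's median was 0.335.

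The ratio of mt-Rnr2 to mt-Rnr1 was higher with long than with short fragments in 3 of 3 pairs after polyA selection, by 0.148 on the log2 scale, and lower in 3 of 3 pairs after pull-down, at -0.393. Without the pair that holds the low-total library the pull-down mean was -0.11, lower in 2 of 2 pairs. The difference between the 2 methods was not tested.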

How the results depend on the processing

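Of 290 values recomputed under an alternative, 242 kept their direction and side of the threshold or, for values without a test, stayed within 1 SD, though sizes among them could still move. Not all 290 are distinct: within pull-down, the fits without the low-total library are counted again among those leaving out 1 library. A further 33 only rounded the counts. Unless a value below shows the cause, the cause was not tested. Without nuclear rRNA genes and Lars2, the shares of mt-Rnr1 moved to 11.7% and 12.6% in unselected batches 1 and 2 and 16.6% in heart, and those of mt-Rnr2 to 12.9%, 14.6% and 28.7%, since the denominator shrank. DESeq2 took mt-Rnr2 by length over all selected libraries below the threshold (0.67) and brought past it the ramp effect after polyA selection (-0.23 for mt-Rnr1, -0.18 for mt-Rnr2) and the polyA minus digestion difference of mt-Rnr1 (0.59). Library totals without TMM brought past it mt-Rnr1 by ramp after polyA selection (-0.22) and by length after digestion (0.43), and reversed the pull-down minus digestion difference of mt-Rnr2 (-0.039). With no gene filter, both genes passed for ramp after polyA selection (-0.22 and -0.18) and for length after digestion (0.44 and 0.33), and mt-Rnr2 for ramp after digestion (0.16, where the SE fell from 0.204 to 0.0207). For length after digestion the SE fell likewise, from 0.152 to 0.0165 for mt-Rnr1 and from 0.203 to 0.0206 for mt-Rnr2. The digestion calls without the filter rest on these falls. Without the low-total pull-down library, ramp effects reversed for the share of mt-Rnr1 (-0.0260 points), the share of mt-Rnr2 (-0.0512 points), the mt-Rnr2 to mRNA ratio (-0.0026), mt-Rnr2 over all selected libraries (-0.013) and mt-Rnr1 after pull-down (-0.057), and mt-Rnr2 by length after pull-down passed (0.80). With mt-Nd1 alone as the reference, chosen after seeing the data, the mt-Rnr2 to mRNA ratio by length reversed (-0.039) and that of mt-Rnr1 was 0.07.

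Leaving out 1 library at a time gave, after pull-down, 0.61 to 0.92 for mt-Rnr1 and 0.083 to 0.80 for mt-Rnr2 by length and -0.057 to 0.27 for mt-Rnr1 and 0.012 to 0.70 for mt-Rnr2 by ramp; after polyA selection, -0.26 to -0.16 and -0.23 to -0.14 by ramp; after digestion, 0.24 to 0.77 and 0.11 to 0.77 by length and -0.26 to 0.35 and -0.23 to 0.57 by ramp. Between batches, the mt-Rnr1 to mRNA ratio then ran from -0.021 to 0.0074, the log2 difference of mt-Rnr1 from 0.080 to 0.19 and that of its share from 0.249 to 0.478 points.

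The fit of the 6 unselected libraries alone brought the batch difference past the threshold, at 0.16 for mt-Rnr1 and 0.24 for mt-Rnr2, and with a replicate block it was 0.16 (adjusted p = 3.16e-04) and 0.23 (adjusted p = 2.59e-08), where 82 of 10958 genes passed. Same-numbered libraries did not deviate together (correlations -0.018, -0.034 and -0.042), so the numbers do not pair them. The low-total library limits every pull-down value that includes it. The list counts without that library, or without the digestion library of slow ramp and short fragments, were chosen after seeing the data.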
